A study of Canis lupus familiaris with 31 samples.

Results

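The comparison described here is between Miniature Schnauzers with normal fasting triglycerides that differed in serum cholesterol. Of the 31 dogs whose whole blood was sequenced, 13 were cases with high fasting triglycerides (HTG) and 18 were controls, with 1 RNA-seq library per dog. Of the 18 controls, 7 had a cholesterol concentration of 180 mg/dl or more (controls 01, 02, 06, 10, 11, 13 and 15) and 8 had one below it (controls 04, 05, 07, 08, 09, 14, 17 and 18). The other 3 controls had no cholesterol value and were left out. The cut at 180 mg/dl divides these dogs by rank and does not mark a disease: control 15 lay nearest above it and control 07 nearest below. All were pet dogs on their own diets, sampled fasted into tubes that stabilize blood RNA, so every group is whole blood of mixed cell types. The study gave no treatment and did not enroll dogs on drugs known to change lipids. The males compared here had been castrated and the females spayed, and other treatment of the dogs is not stated. Negative screens for thyroid and adrenal disease are stated for most controls and not by dog.

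The higher-cholesterol controls were 5 females and 2 males aged 7 to 9 years, and the lower-cholesterol controls were 1 female and 7 males aged 9 to 13 years. Sex and cholesterol were therefore linked in these dogs (two-sided Fisher's exact test, P = 0.0406), and so were age and cholesterol, with means of 8.29 ± 0.756 and 10.1 ± 1.36 years (SD; two-sided exact permutation test over 6435 arrangements, P = 0.00544). For that reason sex was a covariate in the comparison, and the main counts are also given without it. Control 08 was the only lower-cholesterol female, and controls 13 and 15 were the only higher-cholesterol males, so that any contrast within a sex rests on these 3 dogs.

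Total counts were 16844561 to 41533599 in the higher-cholesterol controls and 16413966 to 39456754 in the lower-cholesterol controls, and their log10 values did not differ detectably (two-sided exact permutation test, P = 0.731). The dogs of the study also fell on 2 sides by the level of 352 small non-coding RNA rows. Of these controls, 3 of 7 with higher cholesterol (02, 13 and 15) and 1 of 8 with lower cholesterol (14) were on the high side, with both higher-cholesterol males among them (two-sided Fisher's exact test, P = 0.282). Control 09 stood apart by its white cell genes: its neutrophil markers averaged 10.3 log2 CPM (CPM is the count of a gene scaled to the size of the library), the highest of the 15 dogs, and its T cell markers 4.80, the lowest.

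Cells hold their cholesterol steady by opposed programs. When sterols are scarce, the transcription factor SREBP-2, encoded by SREBF2, raises the enzymes of cholesterol synthesis and the uptake of lipoproteins. When sterols are plentiful, INSIG proteins hold SREBP-2 in the endoplasmic reticulum, and oxysterols activate the liver X receptors, which raise the efflux transporters ABCA1 and ABCG1 and the ubiquitin ligase MYLIP, which lowers lipoprotein uptake. Blood leukocytes use both programs, while circulating cholesterol in the dog is carried mostly in HDL and is set largely by the liver and gut. The question put to these data was whether blood cells of dogs with normal triglycerides and more circulating cholesterol differed in these genes or in any others.

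No gene passed the test. Of 13892 genes tested with edgeR's quasi-likelihood test with sex as a covariate, 0 (0%) passed the threshold of 0.05 after adjustment. At an unadjusted P-value under 0.05 there were 623, with 334 (2.4% of the genes tested) higher and 289 (2.08%) lower in the higher-cholesterol controls, and log2 fold changes had a median of -0.01 over all genes. Without the covariate 0 genes passed and 710 had an unadjusted P-value under 0.05, with 244 (1.76%) higher and 466 (3.35%) lower. With sex and age these were 310 (2.23%) and 341 (2.45%), and with sex and the small RNA side 175 (1.26%) and 238 (1.71%), again with 0 genes passing. limma-voom called 0 genes and had 612 below 0.05 before adjustment, and DESeq2 called 2 (0.0144%), LAYN and IQSEC2, and had 758. All fold changes below are for higher over lower cholesterol, and all adjusted P-values are from edgeR unless another tool is named. Values of genes are given as CPM, which can be compared between dogs and not between genes.

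LAYN, which encodes layilin, a hyaluronan receptor of the cell surface, had the smallest P-value in the table. Its level was 1.29 CPM in the lowest, 1.95 in the median and 2.72 in the highest of the higher-cholesterol controls. In the lower-cholesterol controls it was 2.72, 4.07 and 10.2 CPM, with controls 09 and 08 at the top. All higher-cholesterol controls lay below the median of the others, as was so for 451 (3.25%) of all genes tested, and the groups met only at their edge, where control 11 equalled control 05 to 3 digits. The log2 fold change was -1.90 (SE 0.33, adjusted P = 0.442), and DESeq2 gave it an adjusted P-value of 0.00187. It passed edgeR's threshold without control 09 (adjusted P = 0.0455), and its log2 fold change was between -2.01 and -1.72 whichever dog was left out. Over all 30 alternative settings, with other covariates and tools among them, it was between -2.18 and -1.30. It rested on 24 to 200 counts per dog.

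IQSEC2, an exchange factor for ARF GTPases that is best known from synapses, led the genes that were higher. Its level was 4.47, 5.17 and 7.98 CPM in the lowest, median and highest of the higher-cholesterol controls and 2.74, 3.93 and 5.16 CPM in the lower-cholesterol controls. Controls 13 and 15, the males with higher cholesterol and both on the high small RNA side, had the highest levels. Control 08, the female with lower cholesterol, had the lowest. The log2 fold change was 0.86 (SE 0.17, adjusted P = 0.743), and DESeq2 gave an adjusted P-value of 0.00287. Without sex the log2 fold change was 0.53, and over the 30 alternative settings it was 0.33 to 0.97. IQSEC2 lies on the X chromosome in mammals.

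Within each sex, the groups of both genes were apart. The higher-cholesterol females had 4.47 to 5.19 CPM of IQSEC2 and the lower-cholesterol female 2.74, and the males had 6.83 to 7.98 against 2.92 to 5.16. For LAYN the females had 1.72 to 2.72 CPM against 9.77, and the males 1.29 to 1.54 against 2.72 to 10.2. Of all genes tested, 55 (0.396%) were higher and 53 (0.382%) lower in this way within both sexes, so that LAYN and IQSEC2 share the pattern with others. A fit with an interaction of sex and cholesterol called 0 genes, with 329 at an unadjusted P-value under 0.05.

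Behind LAYN, the genes with lower levels and the smallest P-values included SIRT5, a mitochondrial deacylase, which had 3.82 to 5.77 CPM (median 4.52) in the higher-cholesterol controls and 4.46 to 10.5 (median 6.71) in the others. Its log2 fold change was -0.82 (SE 0.17, adjusted P = 0.999). CD38, an NAD-consuming ectoenzyme of activated lymphocytes and plasma cells, had 12.8 to 28.4 CPM (median 25.2) against 25.2 to 37.2 (median 28.6), a log2 fold change of -0.68 (SE 0.17). Over the 30 alternative settings its log2 fold change was -0.85 to -0.28. CCNE1, the cyclin that starts DNA replication, had 1.26 to 3.11 CPM (median 2.35) against 3.00 to 6.73 (median 4.08), a log2 fold change of -1.18 (SE 0.30). CDCA5, which holds sister chromatids together, had a log2 fold change of -1.46 (SE 0.37), and RARRES2, the precursor of the chemoattractant chemerin, -1.36 (SE 0.39), with 3.50 to 8.01 CPM against 6.01 to 30.6. In SIRT5, CD38, CCNE1, CDCA5 and RARRES2, as in LAYN, every higher-cholesterol control lay below the median of the lower-cholesterol controls. That was so for 451 (3.25%) of all genes tested, and the choice of genes by small P-values in the same dogs favours it.

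Among the genes with higher levels behind IQSEC2, control 15 stood high in several. SLC35F2, a transporter of the solute carrier family, had 3.94 to 13.2 CPM (median 5.35) in the higher-cholesterol controls and 2.41 to 5.22 (median 3.48) in the others, with control 15 at 13.2. Its log2 fold change of 1.08 (SE 0.27) was 0.56 without control 15. ANK3, a membrane-skeleton adaptor, reached 15.3 CPM in control 15 and no more than 3.67 in the other higher-cholesterol controls, and its log2 fold change of 2.04 (SE 0.50) was 0.95 without that dog. RGS10, a regulator of G protein signalling in leukocytes and platelets, had no such dog. Its levels were 56.6 to 82.8 CPM (median 63.5) against 32.6 to 70.6 (median 45.1). The log2 fold change of RGS10 was 0.67 (SE 0.18), or 0.61 to 0.75 with 1 dog left out and 0.45 to 0.75 over the 30 alternative settings. GLMP, a lysosomal membrane glycoprotein, had 36.4 to 51.0 CPM against 29.7 to 40.6, a log2 fold change of 0.36 (SE 0.10) that was 0.09 to 0.44 over the same settings. For IQSEC2, SLC35F2, ANK3, RGS10 and GLMP every higher-cholesterol control lay above the median of the lower-cholesterol controls. That was so for 351 (2.53%) of all genes tested. These genes were chosen by small P-values in the same dogs, which favours this pattern, so it adds no support.

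**Figure D1:**
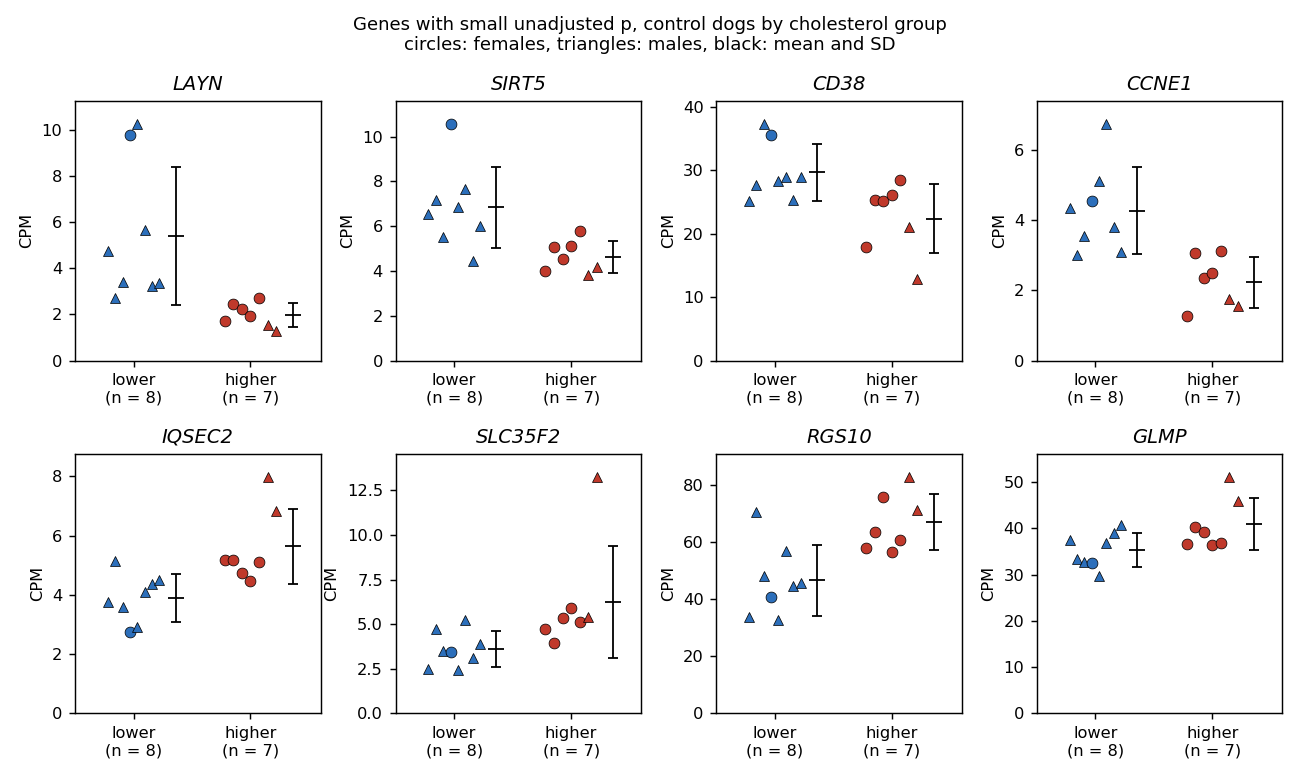
Level in CPM (vertical axes, from 0) of 8 genes in the 8 lower-cholesterol (blue) and 7 higher-cholesterol (red) controls, each point 1 dog, with the mean and SD in black. LAYN reaches 10.2 CPM in the lower-cholesterol controls and no more than 2.72 in the others, while the high point of SLC35F2 is control 15 at 13.2 CPM.

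Only 4 genes had groups that did not overlap over all 15 dogs, 2 higher (0.0144% of the genes tested) and 2 lower (0.0144%), and they are named here after their values were seen. SDHB, a subunit of mitochondrial complex II, had 24.1 to 30.6 CPM (median 26.0) in the higher-cholesterol controls and 19.1 to 24.1 (median 22.2) in the others, a log2 fold change of 0.31 (SE 0.10). SRPRA, a subunit of the receptor that docks ribosomes for secretion, had 67.5 to 88.0 CPM against 88.5 to 111, a log2 fold change of -0.17 (SE 0.10). The others were ENSCAFG00000039206, higher, and ENSCAFG00000034290, lower, which carry no symbol. All 4 had adjusted P-values of 0.999.

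Cholesterol synthesis genes had overlapping levels in the groups. Of 20 genes on the list, 17 were in the table and 16 were tested, of which 10 had a log2 fold change above 0, with a median of 0.03 against -0.01 over all genes. The direction turned without the covariate, where 2 of 16 were above 0 and the median was -0.08, and the median was -0.02 without control 08. SQLE, the epoxidase that commits squalene to sterols, had a median of 6.10 CPM in the higher-cholesterol controls against 6.50 in the others, with ranges that overlapped almost fully, and a log2 fold change of 0.20 (SE 0.24). At an unadjusted P-value under 0.05 there were 0 genes higher and 1 lower of the 16, beside 2.4% and 2.08% of all genes. The gene was HSD17B7, an enzyme of a late step, with a log2 fold change of -0.66 (SE 0.28) that was -0.37 without control 13. Without the covariate the counts were again 0 and 1, and the gene was CYP51A1. With sex and age both counts were 0, and with sex and the small RNA side they turned round to 2 higher, PMVK and NSDHL, and 0 lower, beside 1.26% and 1.71% of all genes, with a median of 0.08. FDPS, which makes farnesyl diphosphate, had -0.25 (SE 0.14) and CYP51A1, the lanosterol demethylase, -0.24 (SE 0.22). HMGCS1, IDI1 and EBP were not analysed here, and MSMO1, with 0 to 19 counts per dog, was below the filter on low counts.

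Of 17 genes of sterol sensing and lipoprotein uptake, 16 were tested, and 8 had a log2 fold change above 0, with a median of -0.02. Without the covariate 4 were above 0 and the median was -0.06, and it was 0.03 without control 13. INSIG1, the sterol-regulated retention protein, had 10.9 to 18.1 CPM (median 15.3) against 13.3 to 22.5 (median 17.8), and its log2 fold change was closer to 0 with sex (-0.12, SE 0.16) than without (-0.27, SE 0.13). SREBF2 had 106 to 131 CPM against 108 to 133 and a log2 fold change of 0.02 (SE 0.09), and its escort SCAP 0.18 (SE 0.13). Of the list, 0 genes were higher and 2 lower at an unadjusted P-value under 0.05, beside 2.4% and 2.08% of all genes. They were STARD4, a cytosolic sterol carrier, at -0.49 (SE 0.21), and VLDLR, the VLDL receptor, at -1.02 (SE 0.46), whose highest level of 10.7 CPM was in control 08 and whose log2 fold change was -0.59 without that dog and -1.58 without control 13. Neither passed adjustment (adjusted P = 0.999 for both). With sex and age, and with sex and the small RNA side, 0 genes of the list were under 0.05 before adjustment in either direction.

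**Figure D2:**
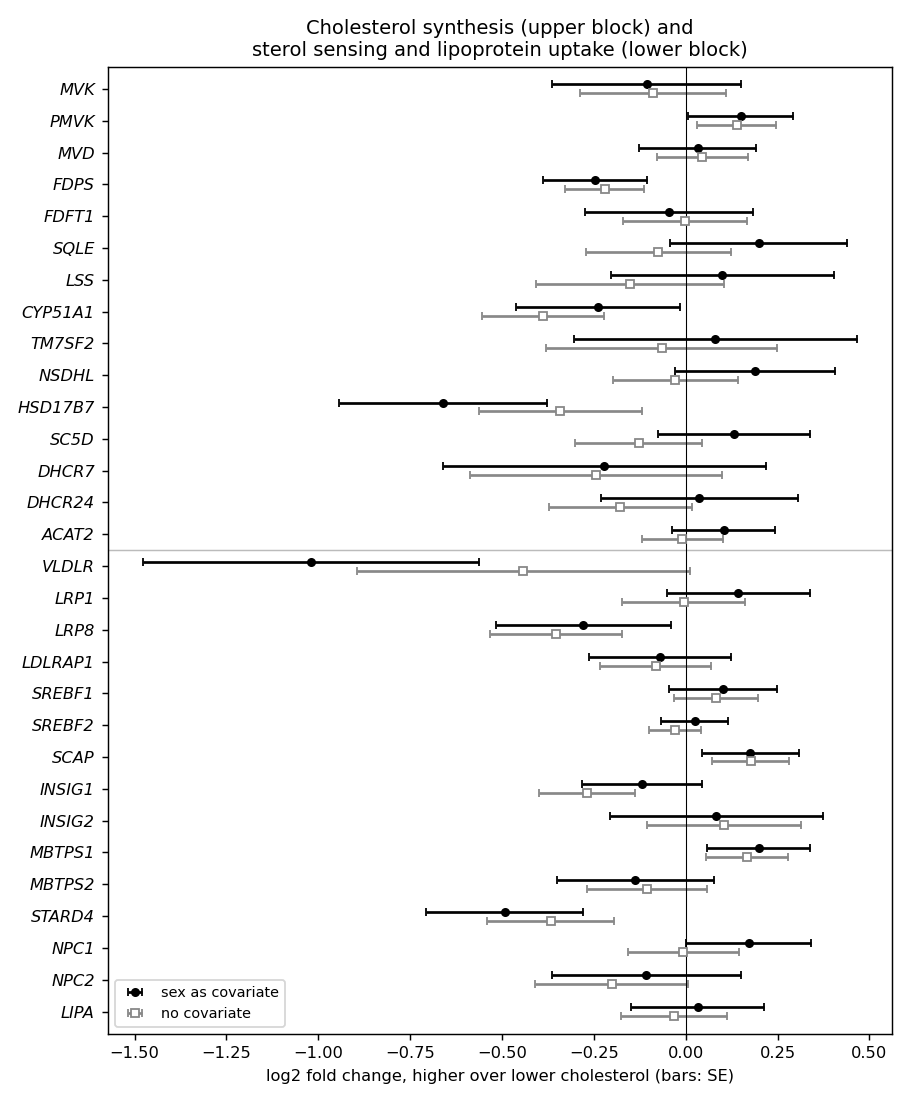
Log2 fold change of higher over lower cholesterol (horizontal axis, bars are 1 SE) for 30 tested genes of cholesterol synthesis and of sterol sensing and uptake, with sex as a covariate (black) and without (grey). INSIG1 lies at -0.27 without the covariate and -0.12 with it, and with the covariate all genes shown but HSD17B7, STARD4 and VLDLR lie within 2 SE of 0.

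Liver X receptor targets and efflux genes also overlapped between the groups. Of 16 genes, 15 were tested and 11 had a log2 fold change above 0, with a median of 0.09 that was -0.06 without control 13 and 0.21 with sex and age, and 0 had an unadjusted P-value under 0.05 in either direction. Without the covariate 12 were above 0, with a median of 0.09 and again 0 genes under 0.05. ABCA1, the exporter that loads HDL, had 77.1 to 153 CPM (median 128) in the higher-cholesterol controls and 25.1 to 135 (median 97.3) in the others, with a log2 fold change of 0.25 (SE 0.32). The level of 25.1 CPM was that of control 09, and the log2 fold change was -0.09 without control 13 and 0.51 with sex and age. MYLIP had 76.6 to 154 CPM (median 126) against 62.8 to 119 (median 102), with control 09 again lowest, and a log2 fold change of 0.19 (SE 0.18). ABCG1, the other exporter, had 0.10 (SE 0.31), which was -0.18 without control 15 and 0.29 with sex and age. The receptor gene NR1H3 had 0.20 (SE 0.25), which was -0.15 without control 13 and 0.51 without control 08. SREBF1, the lipogenic member of the SREBP family, had 0.10 (SE 0.15), and CYP27A1, which makes an oxysterol, 0.44 (SE 0.25). APOE had 0 to 16 counts per dog and was not tested.

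**Figure D3:**
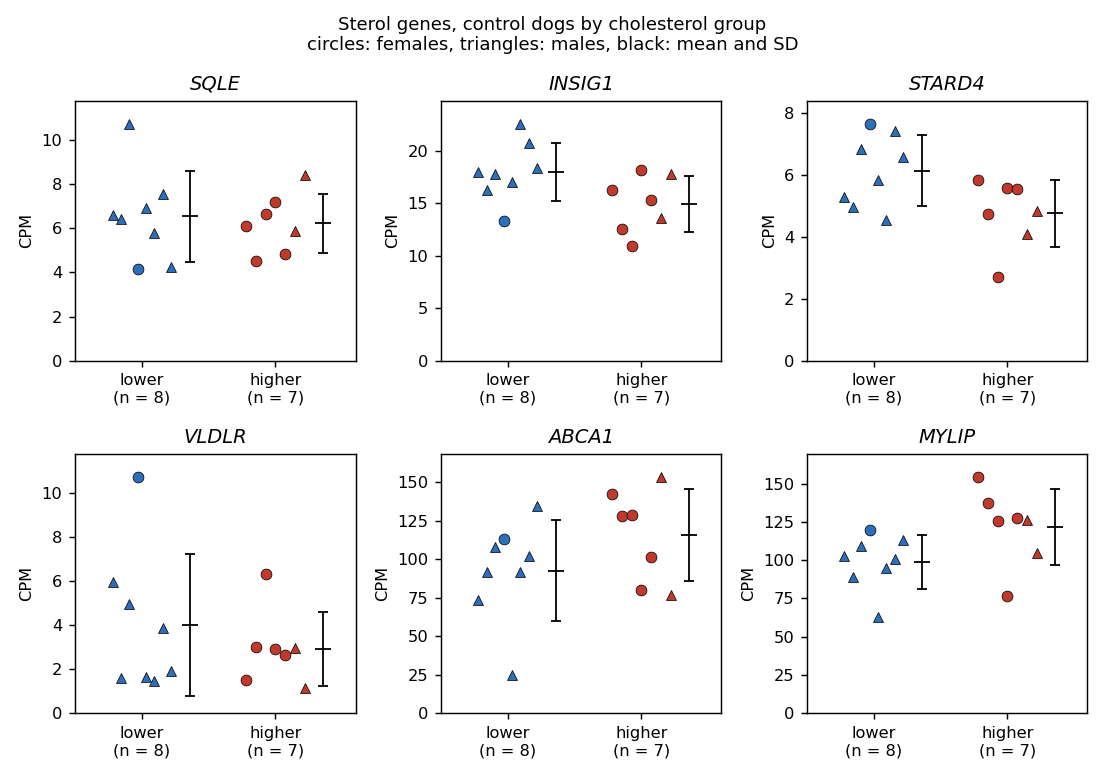
Level in CPM (vertical axes, from 0) of 6 genes of sterol uptake, synthesis and efflux in the 15 controls, each point 1 dog, with the mean and SD in black. The ranges of both groups overlap in every panel, and the low point of ABCA1 is control 09 at 25.1 CPM.

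Scavenger receptors, which bind modified lipoproteins on macrophages and monocytes, were tested for 7 of 9 genes, with a median log2 fold change of 0.18, 1 higher and 0 lower at an unadjusted P-value under 0.05, beside 2.4% and 2.08% of all genes. The median was 0.01 without control 08 and -0.08 with sex and age, and without the covariate it was 0.19, with 0 genes under 0.05. The number of genes higher was 2 with sex and age, beside 2.23% of all genes, and 0 with sex and the small RNA side. With sex alone the gene was STAB1, at 2.66 to 12.0 CPM against 2.58 to 5.89, with control 13 at 12.0 and a log2 fold change of 0.73 (SE 0.29) that was 0.15 without control 13. CD163, the haemoglobin scavenger receptor, had 8.09 to 30.9 CPM (median 22.2) against 0.792 to 23.2 (median 7.17), a log2 fold change of 0.92 (SE 0.56) that was 0.59 without control 13 and 1.67 without control 08. Of the 7 genes, 4 had a log2 fold change above 0 and 3 below, with values from -0.83 to 0.92. CD36 had 0 to 6 counts per dog and was not tested. Fatty acid oxidation and PPAR target genes had a median of -0.04 over 12 of 17 genes, none of them (0) under 0.05 before adjustment, and CPT1A, which admits fatty acids to mitochondria, had -0.34 (SE 0.18). Without the covariate this median was -0.07, and 2 genes, CPT1A and ACADM, were lower before adjustment, beside 3.35% of all genes; it was 0.03 without control 15. With sex and age 1 gene was lower in this sense, beside 2.45% of all genes, and with sex and the small RNA side 0. Glucocorticoid-responsive genes had a median of 0.20 over 10 genes, interferon-stimulated genes -0.11 over 16 of 18 and inflammatory genes -0.02 over 10 of 14, with 0 genes at an unadjusted P-value under 0.05 in each of these lists with or without the covariate. None of the 3 medians kept its sign throughout. The glucocorticoid median was -0.17 without control 13, 0.01 with sex and age and -0.12 with sex and the small RNA side. The interferon median was -0.44 without control 08, 0.20 without control 13 and 0.08 without the covariate, and the inflammatory median was 0.09 without control 15 and 0.11 with sex and age.

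Plasma cell markers were the cell type list with the largest share of genes at an unadjusted P-value under 0.05. Of 8 genes, 7 were in the table and tested, 6 had a log2 fold change below 0, and 3 (MZB1, TNFRSF17 and JCHAIN) were lower at an unadjusted P-value under 0.05, beside 2.08% of all genes. The median log2 fold change was -0.70. In whole blood, fewer cells of a type and less RNA per cell cannot be told apart. The mean level over the 7 genes was 3.30 to 4.08 log2 CPM (median 3.92) in the higher-cholesterol controls and 3.81 to 5.39 (median 4.43) in the others.

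MZB1, a chaperone of immunoglobulin assembly, had 6.27, 15.8 and 19.0 CPM in the lowest, median and highest of the higher-cholesterol controls and 13.1, 25.0 and 59.5 CPM in the others, a log2 fold change of -1.30 (SE 0.44). JCHAIN, which joins IgM and IgA polymers, had 73.5, 127 and 175 CPM against 135, 212 and 560, a log2 fold change of -0.84 (SE 0.39). TNFRSF17, the survival receptor BCMA, had 1.33, 2.18 and 3.12 CPM against 2.42, 5.25 and 11.9, a log2 fold change of -0.83 (SE 0.38). Controls 09 and 14 were the 2 highest dogs for all 3 genes, and every higher-cholesterol control lay below the median of the others. The latter held for 451 (3.25%) of all genes tested, and these 3 were picked by their P-values in the same dogs, which favours it. PRDM1 and IRF4, transcription factors of plasma cells, had log2 fold changes of -0.38 (SE 0.18) and -0.56 (SE 0.27), DERL3, of endoplasmic reticulum degradation, -0.70 (SE 0.44), and SDC1, the surface marker CD138, 0.30 (SE 0.27). No marker passed adjustment (adjusted P = 0.999 for each of the 7).

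The plasma cell median was below 0 in each of the following fits. It was -0.68 without a covariate, where 5 of 7 genes were lower at an unadjusted P-value under 0.05 (3.35% of all genes), -0.77 with sex and age and -0.94 with sex and the small RNA side. In both of the latter fits 5 of 7 genes were again lower at that level, beside 2.45% and 1.71% of all genes. In males alone it was -1.03. It was -0.67 without control 09, -0.62 without control 14 and -0.50 without control 13, and without control 13 the number of genes at an unadjusted P-value under 0.05 was 0. With cholesterol as ranks, scaled to 7.5 ranks, it was -0.27. The B cell list, with MS4A1, had a median of -0.01 over 10 genes, with no settled direction: it was 0.45 without control 13, -0.33 without control 08, 0.19 without the covariate, 0.37 with sex and age and -0.34 in males alone.

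**Figure D4:**
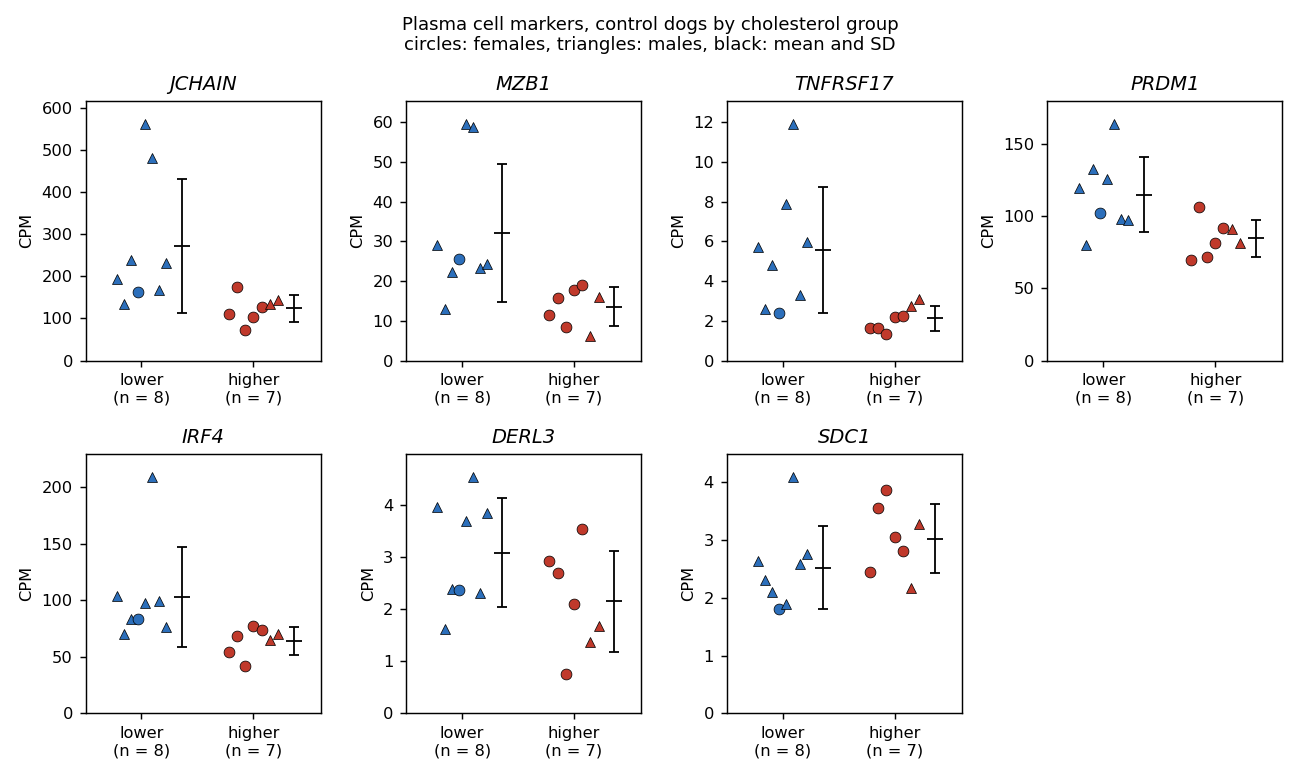
Level in CPM (vertical axes, from 0) of the 7 plasma cell markers tested in the 15 controls, each point 1 dog, with the mean and SD in black. In JCHAIN, MZB1 and TNFRSF17 the 2 highest dogs are lower-cholesterol controls 09 and 14, and SDC1 has its higher mean in the higher-cholesterol controls.

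Platelet markers lay the other way. All 11 tested of 12 genes had a log2 fold change above 0, with a median of 0.57, and 4 (GP9, TUBB1 and GP1BA among them) were higher at an unadjusted P-value under 0.05, beside 2.4% of all genes. GP9, a subunit of the von Willebrand factor receptor, had 18.1, 31 and 54.2 CPM in the lowest, median and highest of the higher-cholesterol controls and 11.8, 19.9 and 40.4 CPM in the others, a log2 fold change of 0.89 (SE 0.35). TUBB1, the tubulin of the platelet rim, had 227 to 701 CPM against 150 to 471 and a log2 fold change of 0.76 (SE 0.30), and GP1BA, of the same receptor as GP9, 0.97 (SE 0.45). The mean level over the 11 genes was 6.11 to 7.40 log2 CPM against 5.59 to 7.04, so the groups overlapped over most of their range, and control 13 was the highest dog for all 3 named genes. These counts were seen with sex alone as the covariate. The number of genes at an unadjusted P-value under 0.05 was 0 without a covariate, where the median was 0.44, 0 with sex and age, where it was 0.46, and 0 with sex and the small RNA side, where it was 0.36. In the dogs of the low small RNA side alone, fitted without sex, the median was 0.16. Without control 13 it was 0.50, with 0 genes at an unadjusted P-value under 0.05.

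With sex as a covariate the other cell type lists gave 0 genes at an unadjusted P-value under 0.05. Without it there were 3, GZMB and the neutrophil granule gene CAMP lower and the erythroid gene HEMGN higher, beside 3.35% of all genes lower and 1.76% higher, so that the count lies near the background. NK and cytotoxic genes had a median log2 fold change of -0.64 over 11 genes, 10 of them below 0, with GZMB, the protease granzyme B, at 9.09 to 32.6 CPM against 6.40 to 100, but with sex and age the median was 0.02, and it was -0.35 without control 15. Erythroid and reticulocyte genes had a median of 0.54 over 9 genes, which was 0.01 with sex and age and 1.04 with sex and the small RNA side, and 0.12 without control 13, 0.27 without control 08 and 0.97 without control 15. The neutrophil median of -0.37 over 8 genes was 0.23 without control 09, 0.01 without control 15 and -0.87 without control 08. By covariate it was -0.90 with sex and age, 0.11 with sex and the small RNA side and 0.45 with sex and body condition score. Monocyte, eosinophil, basophil and mast cell, and T cell lists had medians of 0.14, -0.24, -0.01 and 0.07, and each changed sign with 1 dog left out. The monocyte median was -0.18 without control 13, the eosinophil median 0.26 without control 08, the basophil and mast cell median 0.22 without control 05, and the T cell median -0.20 without control 15 and 0.28 without control 13. Age and the small RNA side were covariates in some fits, but their part in any single gene, and that of cell composition, was not tested. Genes of the X chromosome that escape inactivation had a median of 0.26 without the covariate and -0.01 with it, over 7 genes, and control 08 had their highest level among the lower-cholesterol controls, as its label of female has it.

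**Figure D5:**
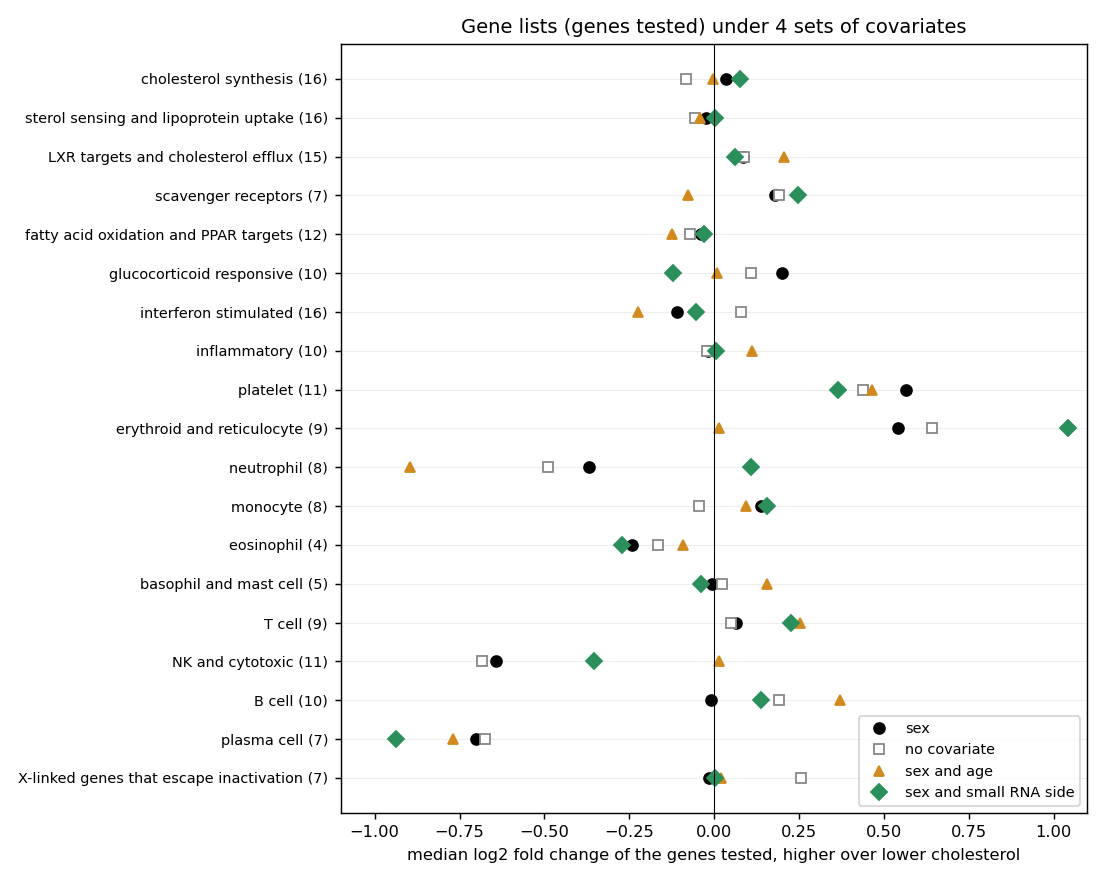
Median log2 fold change of higher over lower cholesterol (horizontal axis) for 19 gene lists, with the number of genes tested in brackets, under 4 sets of covariates. The plasma cell median lies between -0.94 and -0.68 under all 4 and the platelet median between 0.36 and 0.57, while the NK and cytotoxic median moves from -0.64 to 0.02 when age is added.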

How the data were processed

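Whole-blood RNA of 31 dogs was sequenced after removal of ribosomal RNA. The authors trimmed reads with Trimmomatic, aligned them with HISAT2 to the Dog10K_Boxer_Tasha genome, and deposited raw counts of read pairs per gene, without normalization; the counting program and annotation are not given in the sources used here. The table has 32704 rows, of which 18601 carry a symbol. Sex came from the labels, and cholesterol, age and body condition score from the study's description of the dogs. The pilot batch is not named for each dog, so it could not be a covariate, and which controls shared a household is not stated.

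In R 4.3.3, edgeR 4.0.16 normalized counts with TMM, filtered with filterByExpr by cholesterol group, and fitted sex and cholesterol group over the 15 controls with glmQLFit and glmQLFTest. Benjamini-Hochberg adjustment of the P-values ran over all 13892 genes, with a threshold of 0.05. log2 CPM used a prior count of 2. Exact tests were run with scipy 1.17.1. The fits were tested on simulated data. Total counts of 16413966 to 41533599 set the counting precision, and each dog is 1 replicate. The members and the gene lists were chosen with earlier results of these data known. Named genes were the 10 with a mean of at least 1 CPM and the smallest P-values in each direction, up to 4 per list, and 12 preset lipid genes, of which 8 are reported. Of the others, HMGCS1 was not analysed here and CD36 was below the filter, and the rest, like some other genes counted in the lists, are not reported here. Alternatives were DESeq2 1.42.0, limma-voom 3.58.1, other covariates, filters and normalizations, and leaving out each dog. Sequences and gene positions are not used here.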

Additional observations from a re-analysis of the deposited data

Results flagged for a closer look

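Within each cholesterol group, single dogs were compared with the rest of their group by Dixon's ratio, the gap to the nearest dog divided by the range of the group. Of 96 groups of values, 12 passed the 95% critical value, where chance gives about 1 in 20. Control 09 was behind 5 of them, all in the lower-cholesterol group: it was lowest for ABCA1 (ratio 0.641), MYLIP (0.540) and SREBF1 (0.670), lowest for the mean of the T cell markers (0.545) and highest for the mean of the neutrophil markers (0.652). Its neutrophil mean was 10.3 log2 CPM, where the nearest dog of its group, control 04, had 8.03 and the lowest had 6.82.

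In the higher-cholesterol group, control 15 was highest for ANK3 (0.602), SLC35F2 (0.664) and COX7A2L (0.597), and control 10 was lowest for PKDCC (0.611). In the lower-cholesterol group, control 08 was highest for HYDIN (0.681), where the other dogs had 1.57 to 3.59 CPM, and for the mean of the X-linked genes (0.696), as the only female of that group. Control 04 had the highest total count of its group (0.531 on the log10 scale).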

How the results depend on the processing

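The number of genes passing an adjusted P-value of 0.05 was 0 with edgeR and 2 with DESeq2, and 0 to 1 with each dog left out, the 1 being LAYN without control 09. The number at an unadjusted P-value under 0.05 was 623. It was 413 with sex and the small RNA side as covariates and 1240 with no filter on low counts, where 24576 genes were tested, and 446 to 793 with each dog left out. Without sex as a covariate the share of higher genes among these went from 334 of 623 to 244 of 710, and with the cholesterol rank it was 555 of 832. For 28 named genes over 30 settings, 23 of 839 values had another sign than the main one and 0 of these lay more than 1 SE from 0 in both. 3 of the 839 passed the threshold: LAYN and IQSEC2 with DESeq2, and LAYN without control 09. Small RNA side without sex, age without sex, and the low side alone without sex were chosen after seeing the data, and each called 0 genes.

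No paired analysis was possible because the dogs compared are all controls with numbers of their own, so the groups share no number. With 7 dogs against 8, 1 library each, and sex and age linked to cholesterol, small differences cannot be resolved, least of all in genes of low count. High counts were not enough either. TUBB1 and ITGA2B, with at least 2937 and 3675 counts per dog, had log2 fold changes of 0.76 (SE 0.30) and 0.71 (SE 0.36). Both had an adjusted P-value of 0.999 from edgeR.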
